A study of Homo sapiens with 7 samples.

Results

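The core spliceosome proteins were taken here as the genes whose symbol begins with SNRP, SF3A, SF3B, PRPF or U2AF, or is LSM followed by a number and an optional letter, with pseudogenes left out. Isoforms of 47 such genes were listed, among 14294 genes in all. They comprised 2647 of the 386982 listed isoforms, and 44 of the 47 genes reached the level needed for a comparison. LSM11, SF3B5 and U2AF1 also meet the rule and were not analysed here. LSM12, LSM14B and PRPF40B were listed at a mean below 5 TPM (reads scaled to a library of 1000000) and are given only by their range.

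The spliceosome removes introns from pre-mRNA and is built from small nuclear ribonucleoproteins (snRNPs), each an RNA bound by a set of proteins. Sm proteins form a ring on the U1, U2, U4 and U5 snRNAs, and a related ring of LSM proteins binds U6 snRNA or, in the cytoplasm, mRNA that is being degraded. The U2AF proteins recognise the 3′ splice site, the SF3A and SF3B complexes hold the U2 snRNP on the branch point, and the PRPF proteins act mainly in the U4/U6.U5 tri-snRNP and in the steps that activate the assembled particle.

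The cells were HUES66, a long-established line of human embryonic stem cells, and their polyadenylated RNA was read as whole cDNA molecules by PacBio MAS-Seq. In this method cDNAs are joined into arrays for sequencing and separated again in software. Each knockdown aimed at an isoform of RBFOX2, a gene for a splicing regulator, through Cas13d, an RNA-guided nuclease that cuts RNA. The control was labelled WT. The labels of the other 6 libraries give an RBFOX2 isoform knockdown and an id: 178147 for the library called G3, 178149 for G5, 178136 for G11, 178135 for G12, 178145 for G13 and 178146 for G14. All 7, control included, carry the description piggyBac (a transposon used to insert constructs into the genome), received 1 µg/ml doxycycline and have a time point of 24 h. The labels do not say which isoform an id denotes, which promoter drives Cas13d, or whether a line is 1 clone.

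Each group was 1 library, so no difference below has a replicate check and no p-value is given. The intervals are 95% intervals for counting error only and take each read as an independent molecule. Library totals, worked out from the deposited counts and TPM, lay between 16801842 reads (control) and 26678538 reads (G12). No isoform without a control read is listed, so isoforms with few reads are present through that library, which adds to their summed share there. Where this bears on a result, the value among isoforms with a read in every library is given too, a setting chosen after the data were seen. The TPM of a gene sums its isoforms and has no length term, since each read stands for a whole molecule. RBFOX2 itself was at 107 TPM in the control, 42.1 for G3, 96.8 for G5, 82.9 for G11, 88.5 for G12, 55.9 for G13 and 106 for G14. Of 12 pluripotency markers 11 were listed, all but SOX2. Their summed level was 2187 TPM in the control against 1718 to 2204 TPM elsewhere. The single markers differed: POU5F1 was at 915 TPM in the control and 377 to 588 in the G libraries, NANOG at 10.0 and 3.49 to 5.54, and DPPA4 at 745 and 766 to 1002. The mesoderm markers (3 of 4 listed), and likewise the endoderm markers (2 of 4 listed), summed to at most 0.238 TPM in any library. Of the 4 ectoderm and neural markers 1 was listed, TUBB3, at 80.8 TPM in the control and 38.8 (G14) to 110.3 (G3) in the G libraries. The part of these marker levels in the results below was not tested. Of the fibroblast markers, THY1, which embryonic stem cells also express, held nearly all of a sum of 945 TPM in the control.

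The reads of all 47 genes together made up 1.12% of the control library and a smaller share of each G library, from 0.747% in G14 to 0.934% in G12. Most of the fall in the members' summed level lay in 3 genes of the Sm and LSM rings. SNRPN alone made up 48.8% (G13) to 58.6% (G3) of the net fall, and LSM4 and SNRPB were the next. SF3B2 was higher in every G library. In bulk RNA, fewer cells of a type and less RNA per cell cannot be told apart.

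A gene was compared when its mean over the 7 libraries was at least 5 TPM, which 7877 genes reached, and its change was the log2 ratio to the control after adding 0.5 TPM. Against the control, 7 of the 44 members were at least 2-fold lower in G3, where 5.14% of all compared genes were. The same count was 15 for G5 (10.1% of all genes), 12 for G11 (10.4%), 5 for G12 (8.79%), 5 for G13 (14.6%) and 17 for G14 (18.9%). These counts are 15.9% of the members in G3, 34.1% in G5, 27.3% in G11 and 38.6% in G14, all above the share of all genes, and 11.4% in both G12 and G13, near it or below. At least 2-fold higher were 2 members for G3 (1.89% of all genes), 1 for G5 (0.533%), 1 for G11 (0.724%), 1 for G12 (0.546%), 1 for G13 (1.04%) and 2 for G14 (3.97%). SF3B2 was among these in each of the 6 comparisons, which share the same control library and so are not independent of each other. PRPF38B was the other such member in G3 and PRPF4 in G14.

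At a 1.5-fold threshold, 14 members were lower for G3 (12.3% of all genes), 20 for G5 (17.2%), 21 for G11 (22.5%), 15 for G12 (22.6%), 15 for G13 (29.1%) and 23 for G14 (31%). Higher by that threshold were 5 for G3 (8.71%), 1 for G5 (3.71%), 3 for G11 (6.53%), 2 for G12 (5.08%), 2 for G13 (6.86%) and 5 for G14 (15.5%). The members' share on the lower side was above that of all genes in all 6, with the smallest gap in G13, where it was 34.1%.

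The members' median log2 ratio was -0.18 for G3, -0.40 for G5, -0.50 for G11, -0.40 for G12, -0.41 for G13 and -0.70 for G14. For all compared genes it was 0.12, 0.14, -0.04, -0.16, -0.21 and -0.10 in the same order. Thus the median member was lower relative to the control than the median gene in every G library.

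**Figure D1:**
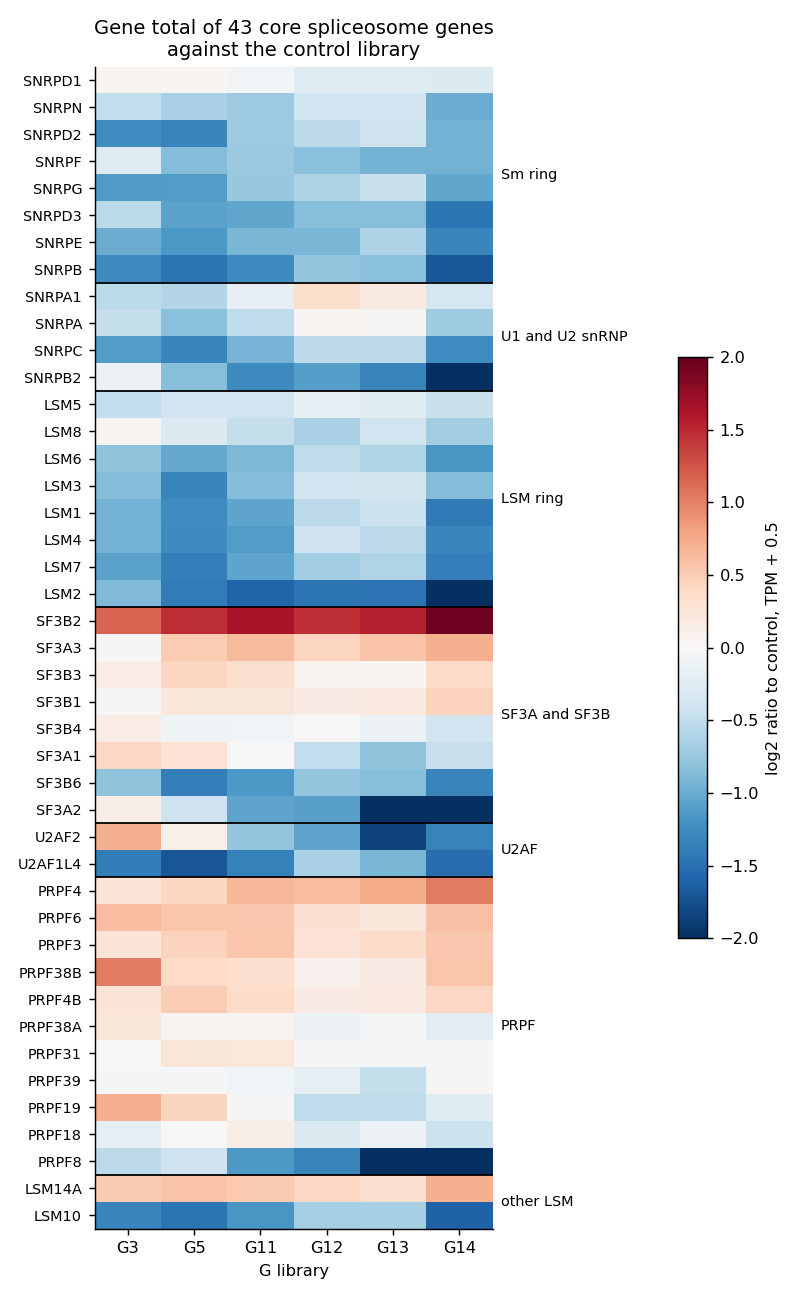
Log2 ratio of 43 compared core spliceosome genes (rows, grouped by role) in each of the 6 G libraries (columns) to the single control library, on TPM + 0.5. Blue marks a lower and red a higher level than in the control, and colours saturate at a log2 ratio of 2 in either direction. The Sm and LSM ring rows are mostly blue, the SF3A, SF3B and PRPF rows are mixed, and SF3B2 is red throughout, with log2 ratios of 1.16 to 1.95.

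The Sm ring genes were lower in most G libraries. Their median log2 ratio was -0.77 for G3, -1.09 for G5, -0.75 for G11, -0.70 for G12, -0.53 for G13 and -1.02 for G14. Of the 8 genes, 3 were at least 2-fold lower for G3, 5 for G5, 2 for G11, 0 for G12, 0 for G13 and 4 for G14, and none was 2-fold higher in any. Of all compared genes, 5.14%, 10.1%, 10.4%, 8.79%, 14.6% and 18.9% were 2-fold lower in the same order. Of the 416 compared genes with transcripts under 1000 nt it was 207, 328, 217, 86, 87 and 293 genes. Only SNRPD2, SNRPE and SNRPG of the ring are that short. Of the 7320 compared genes of at least 1000 nt, 2.62%, 6.19%, 7.99%, 8.09%, 14.3% and 16.0% were 2-fold lower. The medians of SNRPD2, SNRPD3, SNRPE, SNRPF and SNRPG over the 6 libraries lay between -0.95 and -0.83. SNRPD1, the gene for SmD1, stood closest to the control, with log2 ratios from -0.27 in G14 to 0.05 in G3.

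SNRPB encodes the Sm proteins SmB and SmB′ and lies on chr20:2461634-2470853 (GRCh38, minus strand). It was at 729.5 TPM in the control, 305 for G3, 266 for G5, 303 for G11, 426 for G12, 406 for G13 and 225 for G14. The control was above all 6 G libraries, and G14 was the lowest at 30.8% of the control (interval 29.8% to 31.9%).

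The 2 proteins differ at their C-terminus through the choice of the 3′ splice site in the last intron. ENST00000381342 (SmB, 231 residues) uses a site that adds 146 nt to the mRNA, of which 8 nt are coding, and ENST00000438552 (SmB′, 240 residues) a site further downstream. Both sequences are shown from the shared exon end to the stop codon, as in GENCODE 29, because they let the 2 products be told apart; capitals mark the part after the splice junction.
SNRPB ENST00000381342: ctccccctgggatgcgagGCCTTCTTTGA
SNRPB ENST00000438552: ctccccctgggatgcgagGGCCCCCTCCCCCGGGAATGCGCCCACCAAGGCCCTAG

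The SmB form held 73.9% of SNRPB reads in the control and 72.5% (G11) to 74.5% (G12) in the G libraries. The SmB′ form held 24.6% in the control and 23.8% (G3) to 25.6% (G13) elsewhere. So the ratio of the 2 products moved by less than 3 percentage points while the total varied 3.24-fold between its lowest and highest library.

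SNRPN encodes SmN, a paralogue of SmB′ best known from brain, and overlaps the SNURF reading frame of the same transcript. How reads of the SNRPN locus and of the similar SNRPB sequence were told apart is not given in the sources used here. The gene was at 4124 TPM in the control, 2916 for G3, 2641 for G5, 2504 for G11, 3144 for G12, 3146 for G13 and 2064 for G14. As for SNRPB, all 6 G libraries lay below the control and G14 was the lowest. Its main isoform, ENST00000390687, held 76.4% of the reads in the control and 74.7% to 76.8% in the G libraries.

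The 4 genes for other U1 and U2 snRNP proteins did not move as a block. SNRPC (U1-C, which helps U1 bind the 5′ splice site) was at 123 TPM in the control, 56.6 for G3, 49.2 for G5, 64.3 for G11, 85.0 for G12, 85.3 for G13 and 51.6 for G14. SNRPA, for the U1-A protein, had log2 ratios from -0.83 in G5 to 0.05 in G12. For SNRPA1, the U2-A′ protein, they ran from -0.59 in G5 to 0.36 in G12. SNRPA1 thus lay on both sides of the control, at 128% of it in G12 (122% to 134%). The highest SNRPA ratio, in G12, had an interval that included the control (99.7% to 107%).

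SNRPB2, which encodes the U2-B″ protein, was at 256 TPM in the control, 236 for G3, 141 for G5, 107 for G11, 118 for G12, 102.0 for G13 and 61.3 for G14. G3 was close to the control, at 92.4% of it (88.6% to 96.5%), and G14 was at 24.0% (22.5% to 25.5%). Its 2 main isoforms code for the same 225 residues and differ in the 5′ UTR, where ENST00000246071 has 100 nt that ENST00000377943 lacks (chr20:16730065-16730164).

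ENST00000377943 held 60.03% of SNRPB2 reads in the control, 48.4% for G3, 59.97% for G5, 67.1% for G11, 69.5% for G12, 69.4% for G13 and 69.2% for G14. Its share was therefore lowest in G3, the library with the total closest to the control, and highest in the 4 libraries with the lowest totals. The longer 5′ UTR form was highest in G3, at 49.2%, and lowest in G13, at 22.8%.

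The LSM ring, LSM1 to LSM8, was lower as well. Its median log2 ratio was -0.88 for G3, -1.24 for G5, -0.97 for G11, -0.51 for G12, -0.48 for G13 and -1.24 for G14. At least 2-fold lower were 1 of the 8 genes for G3, 6 for G5, 4 for G11, 1 for G12, 1 for G13 and 5 for G14, and none was 2-fold higher. The single gene in G3, G12 and G13 is 12.5% of the ring, beside 5.14%, 8.79% and 14.6% of all compared genes. In G5, G11 and G14 the counts are 75%, 50% and 62.5%, beside 10.1%, 10.4% and 18.9%. LSM5 was the nearest to the control by its median, at -0.39, and LSM2 the furthest. LSM1, LSM3, LSM4, LSM6, LSM7 and LSM8 had medians from -1.06 (LSM7) to -0.44 (LSM8).

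LSM2, a subunit shared by the nuclear and cytoplasmic LSM rings, was at 42.6 TPM in the control, 22.9 for G3, 15.9 for G5, 13.7 for G11, 15.2 for G12, 15 for G13 and 7.59 for G14. Its level was below the control in all 6 G libraries, by the least in G3 (53.6% of the control, 47.4% to 60.7%) and the most in G14 (17.8%, 14.9% to 21.2%). A single isoform, ENST00000375661, held at least 96.2% of LSM2 reads in every library.

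Of the other LSM genes, LSM10, which takes part in the ring of the U7 snRNP that processes histone mRNA, was at 50.6 TPM in the control, 20.1 for G3, 18 for G5, 22.3 for G11, 31.4 for G12, 31.7 for G13 and 16.1 for G14. All G libraries were again below the control, G12 and G13 by the least. It was listed with 1 isoform only.

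LSM14A differs from these in function, since it acts in translational repression and P-bodies rather than in splicing. It was at 157 TPM in the control, 226 for G3, 234 for G5, 225 for G11, 210 for G12, 197 for G13 and 256 for G14. Every G library was above the control, between 126% of it in G13 (120% to 132%) and 163% in G14 (156% to 171%). Its 2 main isoforms have 463 codons each and end differently, because ENST00000433627 includes a 57-nt exon (chr19:34226408-34226464). They are shown from the shared exon end to the stop codon, with the parts after the junction in capitals.
LSM14A ENST00000544216: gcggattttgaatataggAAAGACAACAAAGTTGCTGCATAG
LSM14A ENST00000433627: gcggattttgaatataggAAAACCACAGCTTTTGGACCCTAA

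The form without the exon held 63.0% of LSM14A reads in the control and 62.5% to 64.7% in the G libraries. The form with it held 23.9% in the control and 24.5% to 26.8% in the G libraries. Neither share moved by more than 3 percentage points.

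SF3A and SF3B genes were on both sides of the control, and their median log2 ratio stayed between -0.04 (G13) and 0.25 (G5). SF3B2 (chr11:66050729-66069308, plus strand), whose protein helps anchor SF3B to the pre-mRNA around the branch point, had the highest median ratio of any member. It was at 192 TPM in the control, 429 for G3, 535 for G5, 602 for G11, 528 for G12, 556 for G13 and 740 for G14. The lowest G library, G3, was at 224% of the control (215% to 234%) and the highest, G14, at 386% (372% to 401%).

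This gene rested on 3220 reads in the control and on 7663 to 15499 in the G libraries. Its isoforms kept their proportions: ENST00000322535 held 75.2% of reads in the control and 75.1% to 76.9% in the G libraries. The next isoform, whose ends match that transcript's annotated ends to within 1 nt, held 12.1% and 11.5% to 12.2%.

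SF3A3, which contacts the U2 snRNA within SF3A, was at 274 TPM in the control, 278 for G3, 391 for G5, 423 for G11, 367 for G12, 408 for G13 and 447 for G14. In G3 the interval included the control's level (97.5% to 106%), and the other 5 G libraries were above it. SF3A2 went the other way in most libraries, with 205 TPM in the control, 223 for G3, 153 for G5, 97.9 for G11, 96.1 for G12, 46.9 for G13 and 44.2 for G14. That gene is named for its spread, 5.06-fold between its extremes, and was chosen after its values were seen. The small SF3B6, which sits at the branch point, had log2 ratios between -1.36 in G5 and -0.77 in G12. SF3A1, the SF3A scaffold, was on both sides, from -0.81 in G13 to 0.41 in G3, and SF3B3 and SF3B4 had medians of 0.24 and -0.07. SF3A2 transcripts are the members richest in G and C, at 66.6%.

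**Figure D2:**
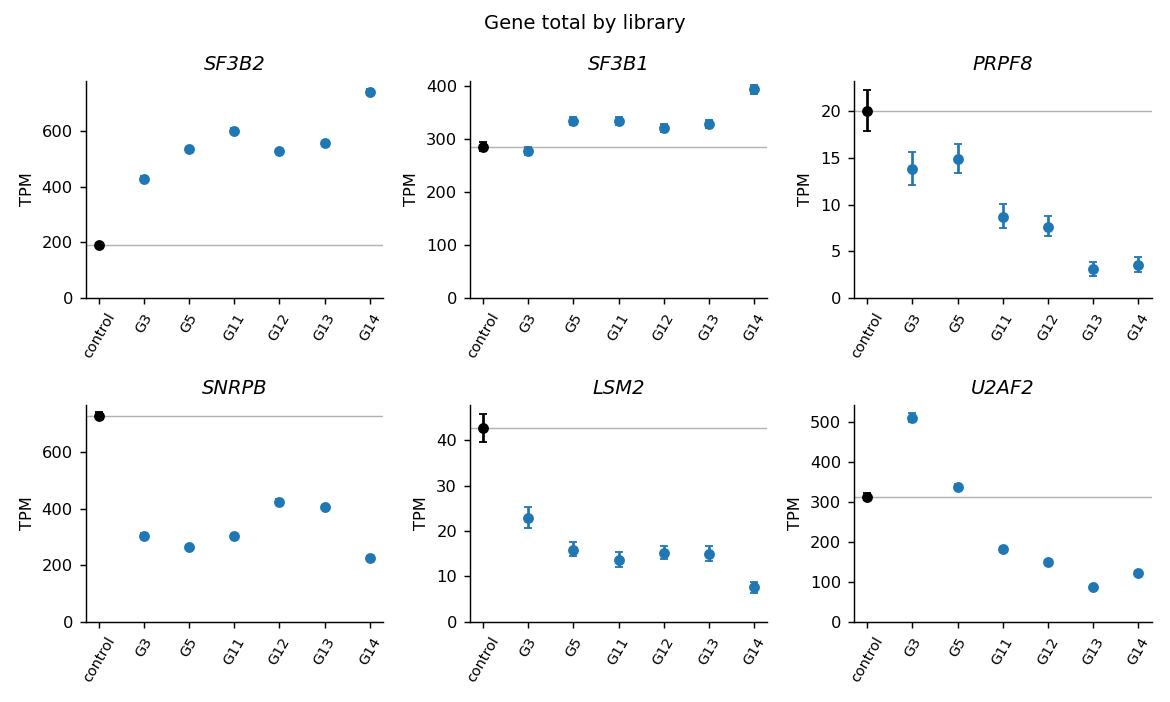
Gene total in TPM (vertical axis, from 0) of 6 core spliceosome genes in the control (black) and the 6 G libraries (blue), 1 library each. Bars are 95% Poisson intervals for counting error, often smaller than the symbol, and the grey line repeats the control's level. SF3B2 lies above the control in all 6 G libraries, PRPF8, SNRPB and LSM2 lie below it, SF3B1 stays near it, and U2AF2 lies on both sides.

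SF3B1, the largest SF3B subunit and the one that clamps the branch helix, had a nearly level total. It was at 286 TPM in the control, 277 for G3, 334 for G5, 333 for G11, 321 for G12, 329 for G13 and 394 for G14. Only G3 had an interval that included the control (93.2% to 101%), and G14 was the highest, at 138% (133% to 143%).

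Behind this total, the order of 2 isoforms was reversed in 5 of the 6 G libraries. ENST00000335508, the annotated 25-exon mRNA, held 37.7% of SF3B1 reads in the control, 41.3% for G3, 58.2% for G5, 64.8% for G11, 57.4% for G12, 64.2% for G13 and 72.0% for G14. An isoform with a hashed ID, numbered 1 here, held 53.9% in the control, 49.2% for G3, 34.9% for G5, 29% for G11, 36.4% for G12, 29.8% for G13 and 22.2% for G14. The control interval of the hashed form (52.5% to 55.3%) lay above every G library and the G14 interval was 21.4% to 23.1%.

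The hashed form starts within 4 nt of an annotated SF3B1 start and ends inside coding exon 11 of 25, at chr2:197405110 (GRCh38, minus strand; exon at chr2:197405076-197405177), 2826 nt from the nearest annotated 3′ end. The deposited table gives no exon structure for it. The reference mRNA around that position is shown because most of the isoform difference in this gene turns on it, with the 20 nt after the end in capitals.
SF3B1 hashed isoform 1: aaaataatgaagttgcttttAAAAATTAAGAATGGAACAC

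These 20 nt hold 12 A, and 1.03% of the 3893 windows of that length in the coding sequence hold at least as many. Whether the position bears on how the molecules were primed or cleaved was not tested. In TPM the hashed form was lower, from 154 in the control to 87.7 in G14 (56.9% of the control, 53.6% to 60.4%). ENST00000335508 was higher, from 108 to 284 TPM (264%, 250% to 278%).

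Over all its isoforms, SF3B1 had 59.4% of its reads on 3′ ends inside coding exons and at least 100 nt from an annotated end in the control. This share was 56.0% for G3, 38.7% for G5, 31.7% for G11, 39.7% for G12, 32.5% for G13 and 25.1% for G14. Across all 47 members such reads were few, 1.68% of the members' reads in the control and 1.24% (G13) to 1.88% (G3) in the G libraries, and SF3B1 and PRPF39 held nearly all of them. Among isoforms with a read in every library the SF3B1 share was 59.5% in the control and 25.1% (G14) to 55.9% (G3) in the G libraries.

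Of the U2AF genes, U2AF2 (chr19:55654146-55674715, plus strand), for the large subunit that binds the polypyrimidine tract, had one of the widest spreads. It was at 313 TPM in the control, 510.3 for G3, 337 for G5, 181 for G11, 150 for G12, 86.8 for G13 and 123 for G14. The G3 and G5 libraries were above the control, and the other 4 were below it. Its extremes lay 5.88-fold apart, at 163% of the control in G3 (158% to 169%) and 27.7% in G13 (26.3% to 29.2%). U2AF2 transcripts are rich in G and C, at 61.2% against a median of 47.9% over all compared genes.

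The main U2AF2 isoform, ENST00000450554 with 471 codons, held 52.6% of its reads in the control, 58.0% for G3, 61.8% for G5, 54.4% for G11, 46.2% for G12, 40.1% for G13 and 54.2% for G14. ENST00000308924, with 475 codons, held 10.1% in the control and 5.96% (G13) to 11% (G3) in the G libraries. The 2 differ by 12 nt at a 5′ splice site (chr19:55669170-55669181), in capitals below.
U2AF2 ENST00000450554: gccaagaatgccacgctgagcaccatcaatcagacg
U2AF2 ENST00000308924: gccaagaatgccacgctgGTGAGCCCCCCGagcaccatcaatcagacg

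A hashed U2AF2 isoform held 12.8% in the control, 7.54% for G3, 9.87% for G5, 16.4% for G11, 22.7% for G12, 32.8% for G13 and 17.8% for G14. Its 3′ end lay 1 nt from an annotated end. In TPM this form varied less than the gene, between 22 in G14 and 40 in the control, so its share was highest where the total was lowest.

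U2AF1L4, a paralogue of the small subunit U2AF1, was at 12.1 TPM in the control, 4.37 for G3, 3.38 for G5, 4.46 for G11, 7.57 for G12, 6.19 for G13 and 3.91 for G14. All G libraries were below the control, with G12 the nearest at 62.4% (51.1% to 76.1%). Its 78 to 204 reads per library were spread over 112 isoforms, so its isoform shares are not described further. The fall of this gene depends on the listing: isoforms with a read in every library held 27.5% of its reads in the control and 50.5% to 63.4% in the G libraries.

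The PRPF genes centred near the control, with a median log2 ratio from -0.07 in G12 to 0.32 in G5, but held the compared member with the largest range. PRPF8 (chr17:1650629-1684882, minus strand) encodes the U5 protein at the catalytic centre of the spliceosome. It was at 20 TPM in the control, 13.8 for G3, 14.9 for G5, 8.74 for G11, 7.65 for G12, 3.07 for G13 and 3.53 for G14. No G library reached the control. G5 was the nearest at 74.5% (64.1% to 86.5%) and G13 the furthest at 15.4% (11.7% to 19.9%), on 336 reads in the control and 70 in G13. Its mRNA is long, 7302 nt by the annotation.

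Of the other U5 and tri-snRNP proteins, PRPF6, which bridges U5 and U4/U6, was at 90.2 TPM in the control, 138 for G3, 133 for G5, 131 for G11, 111 for G12, 106 for G13 and 136 for G14. PRPF4, of the U4/U6 snRNP, was at 79.8 TPM in the control, 95.3 for G3, 107 for G5, 127 for G11, 122 for G12, 133 for G13 and 165 for G14. Both genes were above the control in all 6 G libraries, PRPF4 by the most in G14 (207%, 194% to 220%) and PRPF6 in G3 (153%, 144% to 164%). PRPF3, which binds PRPF4, had log2 ratios between 0.27 and 0.55, and PRPF31 between -0.02 and 0.24.

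PRPF4 mRNAs differ by 3 nt at a 3′ splice site, which adds 1 codon. ENST00000374198, with the extra 3 nt, held 74.4% of reads in the control and 77.1% to 80.3% in the G libraries. ENST00000374199, without it, held 17.3% in the control and 15.9% to 18.9% in the G libraries. Both shares depend on the hashed isoforms, which held 8.28% of PRPF4 reads in the control and 3.19% to 4.02% elsewhere. Among isoforms with a read in every library, ENST00000374198 held 78.2% in the control and 77.8% (G13) to 80.9% (G11) in the G libraries. ENST00000374199 then held 16.0% in G11, beside 18.2% in the control, so the hashed isoforms do not account for G11. Over reference-ID isoforms alone the share of ENST00000374198 differed from the control by 0.059 percentage points (median of the G libraries). The sequences show how small this difference is, with the 3 nt in capitals.
PRPF4 ENST00000374199: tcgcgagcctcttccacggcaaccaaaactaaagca
PRPF4 ENST00000374198: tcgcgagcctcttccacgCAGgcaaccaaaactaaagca

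PRPF19, the ubiquitin ligase of the complex that activates the spliceosome, had log2 ratios from -0.51 in G12 and G13 to 0.73 in G3. PRPF38A, PRPF18, PRPF31 and PRPF39 had medians between -0.15 and 0.02. Apart from PRPF8, no compared PRPF gene was 2-fold lower in any G library.

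Isoform use was compared by the usage distance, the summed gain in share of the isoforms that gained share against the control, from 0 (same shares) to 1 (no isoform in common). The members' median distance was 0.040 for G3, 0.037 for G5, 0.045 for G11, 0.039 for G12, 0.041 for G13 and 0.051 for G14. For all compared genes it was 0.063, 0.062, 0.065, 0.065, 0.073 and 0.076 in that order, so the median member was nearer to the control's isoform shares than the median gene in each. Distances of genes with few reads are larger from counting alone, and over isoforms of at least 1 TPM the order was the reverse in G11. Isoforms with a read in every library gave member medians of 0.025, 0.021, 0.025, 0.018, 0.027 and 0.025, below all genes in each library. Apart from U2AF1L4, the largest median distances were 0.33 for PRPF39, 0.25 for PRPF38B, 0.24 for SF3B1, 0.14 for PRPF4B and 0.13 for U2AF2.

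PRPF39 (chr14:45084099-45116282, plus strand), a U1 snRNP-associated protein, was at 33.8 TPM in the control, 33.1 for G3, 33.0 for G5, 32.4 for G11, 29.6 for G12, 24.1 for G13 and 34.3 for G14. The total was level except in G13 (71.5% of the control, 63.5% to 80.5%) and G12 (87.9%, 78.8% to 98.0%). Its full-length mRNA ENST00000355765 held 24.5% of reads in the control, 32.5% for G3, 39.6% for G5, 43.3% for G11, 43.7% for G12, 52.9% for G13 and 45.1% for G14. The control share (21.2% to 28.2%) was below all 6 G libraries.

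Hashed isoform 1 of PRPF39 ends inside exon 12 of 14, at chr14:45114250, and held 19.6% in the control, 15.9% for G3, 14.2% for G5, 7.69% for G11, 5.82% for G12, 4.55% for G13 and 6.41% for G14. All PRPF39 isoforms with an end inside a coding exon together held 48.7% in the control, 41.8% for G3, 37.3% for G5, 28.6% for G11, 28.1% for G12, 20.7% for G13 and 24.9% for G14. As in SF3B1, the control had the highest share of such ends and the full-length form its lowest. Among isoforms with a read in every library, such ends held 45.7% in the control and 18.3% (G13) to 37.5% (G3) elsewhere, and ENST00000355765 held 30.1% and 36.6% to 56.7%. The reference mRNA at the end of hashed isoform 1 is shown for comparison with SF3B1, with the 20 nt after the end in capitals.
PRPF39 hashed isoform 1: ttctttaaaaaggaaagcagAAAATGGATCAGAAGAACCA

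Here 11 of the 20 nt are A, and 8.35% of the 1988 windows of the coding sequence hold at least as many. Hashed isoforms 2 and 4 of PRPF39 also end inside coding exons. The next 20 nt hold 8 A for isoform 2 (44.5% of windows hold at least as many) and 10 A for isoform 4 (14.8%).

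**Figure D3:**
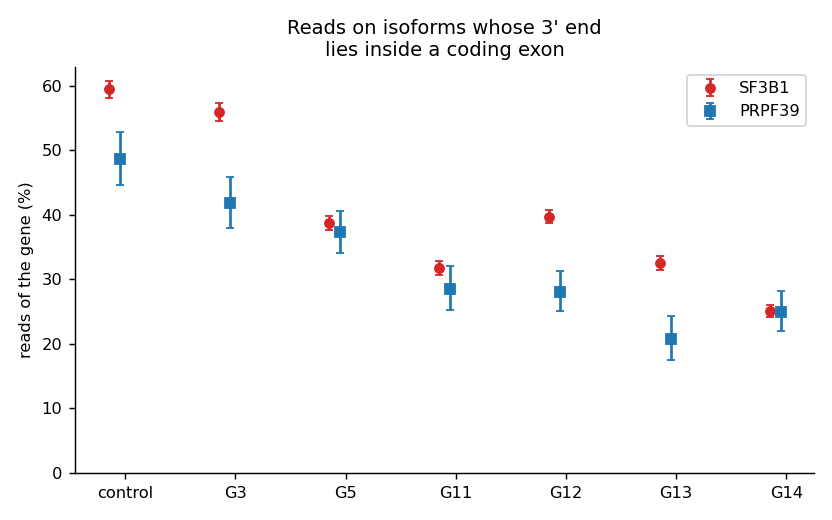
Share of a gene's reads on isoforms whose 3′ end lies inside a coding exon and at least 100 nt from any annotated end (vertical axis, percent), in the control and the 6 G libraries, for the 2 core spliceosome genes with the highest shares. Bars are 95% Wilson intervals. SF3B1 goes from 59.4% in the control to 25.1% in G14 and PRPF39 from 48.7% to 20.7% in G13.

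PRPF38B, a relative of the B-complex protein PRPF38A, was at 18.9 TPM in the control, 38.9 for G3, 25 for G5, 23.9 for G11, 20.1 for G12, 21.3 for G13 and 27.9 for G14. Only G3 reached 2-fold, at 206% of the control (180% to 236%), and the intervals of G12 and G13 included the control. ENST00000370025 held 31.4% of its reads in the control, 67.6% for G3, 48.6% for G5, 45.5% for G11, 50.9% for G12, 59.5% for G13 and 50.6% for G14.

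Hashed isoform 1 of PRPF38B, which ends 14 nt from the annotated end of the 5-exon ENST00000370022, held 32.1% in the control, 14.7% for G3, 25.6% for G5, 28.1% for G11, 24.8% for G12, 20.2% for G13 and 20.2% for G14. In TPM that isoform stayed between 4.30 (G13) and 6.72 (G11), with 6.07 in the control. The long form went from 5.95 TPM in the control to 10.2 or more in every G library and 26.3 in G3, so the shift in shares came mainly from the long form. Among isoforms with a read in every library the long form held 33.8% in the control and 47.3% (G11) to 69.0% (G3) elsewhere.

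PRPF4B, a kinase of tri-snRNP proteins, was at 13.8 TPM in the control, 16.6 for G3, 19.8 for G5, 17.8 for G11, 15.5 for G12, 15.8 for G13 and 18.4 for G14. Its full-length ENST00000337659 held 78.8% of reads in the control and 89.2% (G13) to 95.3% (G3) in the G libraries. This difference rests mostly on isoforms that not every library holds: among isoforms with a read in every library its share was 91.0% in the control and 90.7% to 96.9% in the G libraries.

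**Figure D4:**
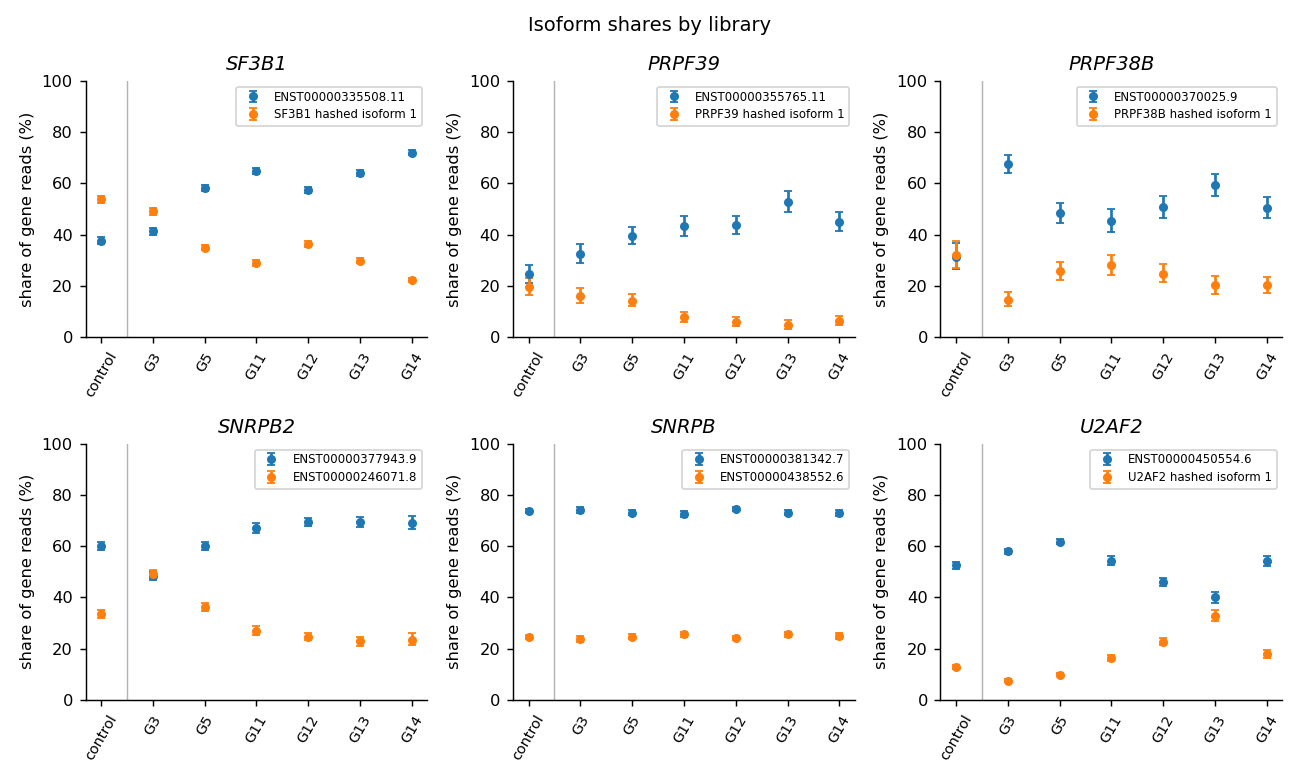
Share of the gene's reads (vertical axis, percent) of each isoform holding at least 10% on average, in the control and the 6 G libraries, for 6 core spliceosome genes; bars are 95% Wilson intervals. The full-length isoforms of SF3B1, PRPF39 and PRPF38B have their lowest share in the control, also among isoforms with a read in every library, those of SNRPB stay within 3 percentage points, and SNRPB2 and U2AF2 vary between G libraries.

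Isoforms annotated as nonsense-mediated decay or retained intron types held few reads, but hashed isoforms have no type and are not counted here. Among member reads on isoforms with a GENCODE 29 transcript type, 0.085% were on these types in the control (132 reads), and 0.069% (G3) to 0.106% (G14) in the G libraries. The control's interval, 0.071% to 0.1005%, overlapped those of all 6 G libraries. The same share over all compared genes was 0.742% in the control and 0.600% (G3) to 0.766% (G5) elsewhere. LSM6 had the highest member share, from 2.19% in the control to 6.67% in G14 on 36 and 62 reads.

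The members' transcript lengths moved with their ratios. The 9 compared members with a mean annotated length under 1000 nt had median log2 ratios of -1.11 for G3, -1.36 for G5, -1.05 for G11, -0.68 for G12, -0.61 for G13 and -1.32 for G14. All 416 compared genes of that length had -0.998, -1.29, -1.02, -0.61, -0.61 and -1.30, so short spliceosome genes and short genes in general stood at about the same distance from the control. The 35 longer members had -0.01, -0.03, -0.06, -0.20, -0.25 and -0.44, and the 7320 longer genes 0.14, 0.16, -0.01, -0.14, -0.19 and -0.05. Which step of cell culture, library preparation or counting set this length trend was not tested.

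**Figure D5:**
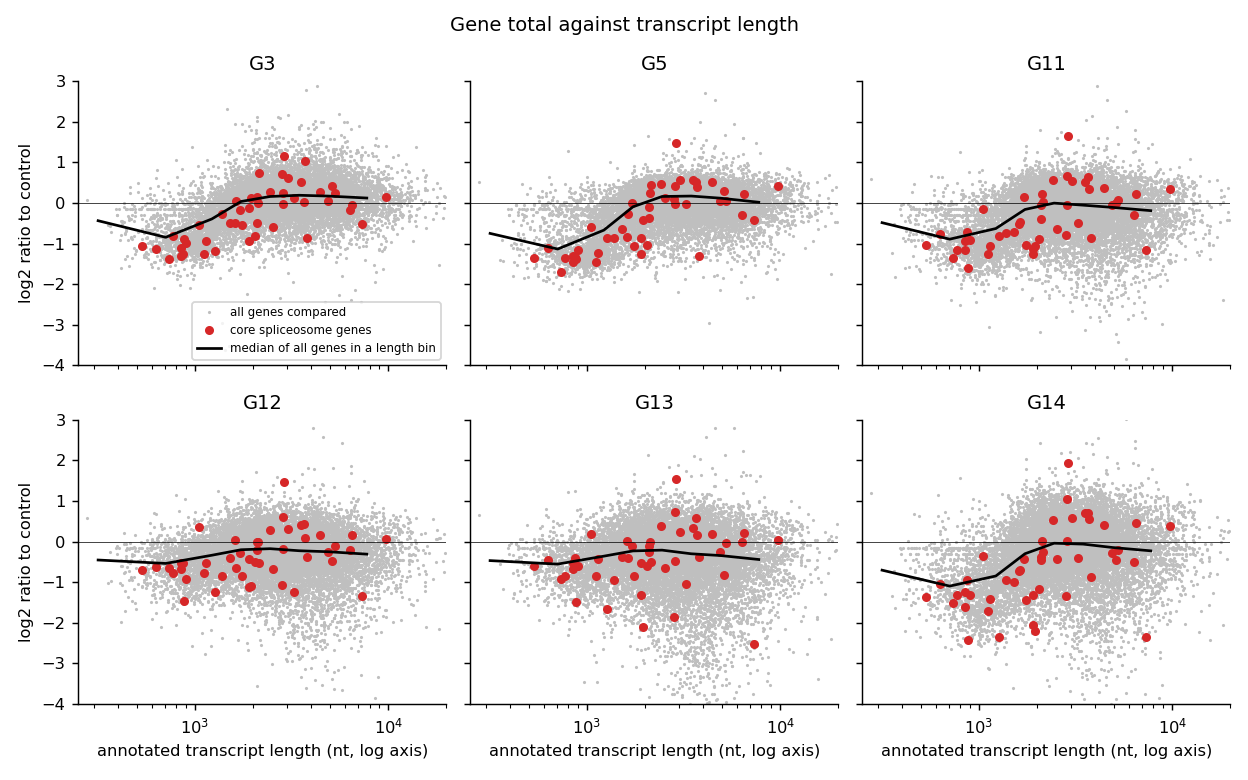
Log2 ratio of the gene total to the control (vertical axis) against the mean annotated transcript length (horizontal, log axis) in each G library, for all compared genes with a length (grey) and the core spliceosome genes (red). The black line is the median of all genes in a length bin; it dips below 1000 nt most in G3, G5, G11 and G14, and most red points follow it. SF3B2 is the highest red point in all 6 panels.

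A smooth trend in transcript length and GC content (second-order, on log2 length) was then taken out of each library. After that, the members' median log2 ratio was -0.12 for G3, -0.24 for G5, -0.21 for G11, -0.18 for G12, -0.15 for G13 and -0.31 for G14. With the trend removed, 1 member was at least 2-fold lower for G3 (1.31% of the 7736 genes with a length), 3 for G5 (2.42%), 2 for G11 (3.09%), 2 for G12 (2.47%), 3 for G13 (4.87%) and 6 for G14 (6.94%). At least 2-fold higher were 0 for G3 (1.40%), 1 for G5 (0.801%), 1 for G11 (1.19%), 1 for G12 (1.54%), 3 for G13 (3.81%) and 2 for G14 (4.85%). SF3B2 then had log2 ratios from 0.88 in G3 to 2.26 in G14. SNRPB2 kept a median of -1.18, LSM2 had -0.99 and PRPF8 -0.89. Those of LSM3 (-0.87 to -1.04), LSM6 (-0.85 to -0.89) and LSM5 (-0.39 to -0.49) became lower, and SNRPD3 went from -0.95 to -0.83. By contrast, LSM10 went from -1.24 to -0.32 and U2AF2 from -0.92 to -0.33. The falls described above were also smaller for SNRPB (-1.26 to -0.66), U2AF1L4 (-1.36 to -0.36) and SNRPN (-0.57 to -0.32). The median of SF3A2 went from -1.07 to -0.15 and that of SNRPC from -1.02 to -0.29. Single SF3A2 ratios then lay between -0.85 in G14 and -0.068 in G5. SF3B6 was left with a median of -0.32. Of the higher genes, LSM14A went from 0.52 to 0.29, PRPF38B from 0.36 to 0.098, PRPF4B from 0.31 to 0.070 and SF3B1 from 0.21 to 0.12. PRPF4 (0.64 to 0.61) and SF3A3 (0.54 to 0.51) changed little. The medians of PRPF6 (0.55 to 0.77), SF3B3 (0.24 to 0.68) and PRPF31 (0.004 to 0.48) became higher.

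The Sm ring's median after this removal was between -0.60 (G14) and -0.33 (G13), and the LSM ring's between -0.78 (G14) and -0.31 (G13). The medians of SNRPG and LSM7, the members with the shortest transcripts, were then above 0, at 0.23 and 0.43. The lengths are those of annotated transcripts and not of the reads.

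The 3 members below the level for comparison had low values throughout. LSM12, an RNA-binding LSM-domain protein outside the rings, ranged from 1.34 TPM in G14 to 8.87 in the control. LSM14B, the paralogue of LSM14A, ranged from 0.56 to 1.34 TPM. PRPF40B ranged from 1.99 to 5.88 TPM.

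Other spliceosome proteins, a list of 45 genes outside the symbol rule of which 44 were compared, had median log2 ratios of 0.18 for G3, 0.25 for G5, 0.07 for G11, -0.06 for G12, -0.05 for G13 and 0.12 for G14. At least 2-fold lower were 4 for G3, 7 for G5, 3 for G11, 2 for G12, 4 for G13 and 7 for G14, and 2-fold higher 2, 2, 3, 2, 3 and 5. The lower counts are 9.09%, 15.9%, 6.82%, 4.55%, 9.09% and 15.9% of the list, above the share of all genes in G3 and G5 (5.14% and 10.1%) and below it in the other 4 libraries. The higher counts are 4.55%, 4.55%, 6.82%, 4.55%, 6.82% and 11.4% of the list. These lie above the share of all genes in every G library, which was 1.89%, 0.533%, 0.724%, 0.546%, 1.04% and 3.97%. Like PRPF8, its U5 partner SNRNP200, the helicase that unwinds U4/U6, was lowest in G13, at 21.2 TPM in the control and 6.19 in G13. Unlike PRPF8, it was near the control in G3 (20.6 TPM) and G5 (23.0 TPM). With the trend removed its median went from -0.75 to -0.39, and PRPF8 was then lowest in G14 (-1.85, beside -1.37 in G13). The third large U5 protein, EFTUD2, was at 157 TPM in the control and 144 (G13) to 201 (G5) in the G libraries. TXNL4A, the small U5 protein, had a median of -1.19.

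In that list CWC27, a cyclophilin-type spliceosome protein, had the largest median, at 1.80, with 19.1 TPM in the control and 61.1 (G5) to 106 (G14) in the G libraries. CDC5L, of the PRPF19 complex, had 1.20, with 23.7 TPM in the control and 34.3 (G3) to 60.2 (G14) in the G libraries. Both lay above the control in all 6 G libraries, as SF3B2 did. Between these genes in absolute size stood ZMAT5, with a median of -1.36. It lay below the control in all 6, at 28.0 TPM there and 7.93 (G14) to 15.4 (G12) in the G libraries. Taking out the trend left medians of -0.48 for ZMAT5, 1.75 for CWC27 and 0.99 for CDC5L.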

How the data were processed

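The authors deposited 1 table with a count of full-length reads and a TPM for every isoform and library, per the file headers. The total of each library was inferred from the counts and rounded TPM of its largest isoforms. With these totals, the deposited TPM equalled the count scaled to 1000000 reads of the library to within 0.00501. The submitters' processing notes name minimap2 2.17 and GRCh38/hg38. The isoform caller, its filters and its annotation are not given in the sources used here. Every listed isoform has at least 1 read in the control, and listed isoforms hold 98.1% to 98.6% of the reads of each G library, so an isoform without a control read has no value here. A missing value counts as 0.

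Gene totals add up the isoforms that share an Ensembl gene ID without its version, with symbols from a gene name table (14287 of 14294 genes matched). Of 50 protein-coding genes that meet the symbol rule, 47 had isoforms; 65 pseudogenes and 5 divergent or antisense genes were left out. The labels put 1 library in each group, numbered as replicate 1, so no test across genes was run. Ratios of reads have exact Clopper-Pearson intervals and shares have Wilson intervals. Isoforms with a hashed ID are numbered by mean share within their gene. Their starts, counted from 0 in the table, have 1 added.

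Transcript types, lengths, GC content, exons and the printed sequences came from GENCODE 29 (GRCh38); a gene's length is the mean over its listed annotated isoforms, weighted by mean TPM. Of 96 member isoforms with a GENCODE 29 model, 46 had both ends within 100 nt of it. Python 3.11.15, numpy 2.4.6, pandas 2.3.3, scipy 1.17.1 and matplotlib 3.10.9 were used, and the ratio, trend and interval calculations were checked on simulated data.

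Genes named with values are, among members with a mean of at least 10 TPM, the 5 with the largest median rise, the 5 with the largest median fall and the 6 with the largest median usage distance, with the U2AF genes, SF3B1, SNRPB and SNRPN in addition; isoforms are named from a mean share of 10%. The remaining members are given by role. A member that met this rule is not reported here by name and stays in the counts and medians. Members, lists and rules were chosen with earlier results of these data known.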

Additional observations from a re-analysis of the deposited data

How the results depend on the processing

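No paired analysis was possible because each group is 1 library and all carry the same replicate number, which also leaves no library to omit. Values below stand in the order G3, G5, G11, G12, G13, G14 unless named. The members' median log2 ratio was below that of all compared genes in all 6 G libraries under every planned setting except the one that replaced the control by the median of the other 6 libraries, where it was below in 4 of 6.

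Counts of members at least 2-fold from the control, both directions together, differed by over 1.5 times as follows. With the length and GC trend removed they were 1 for G3, 4 for G5, 3 for G11, 3 for G12 and 8 for G14. Against the median of the other 6 libraries they were 3, 1, 0, 0, 3 and 3, since a member that is low in all G libraries then no longer stands out. A 1.5-fold threshold gave 19 in G3, 24 in G11, 17 in G12 and 17 in G13, and median-of-ratios rescaling gave 3 in G12. In G13 at 1.5-fold, 34.1% of the members were lower and 4.55% higher, beside 29.1% and 6.86% of all genes. The shares of all genes by direction are given above for that threshold and for the removed trend. They were not computed for the other reference or the rescaling.

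The members' median log2 ratio moved beyond counting error with the trend removed, to -0.24 for G5, -0.21 for G11, -0.18 for G12, -0.15 for G13 and -0.31 for G14. With members of at least 1000 nt only, a setting chosen after the data were seen, it was -0.0088, -0.033, -0.056, -0.20, -0.25 and -0.44. Against the median of the other 6 libraries it was -0.032, -0.037, -0.015, -0.024, 0.037 and -0.35, which turns the direction in G13. Median-of-ratios rescaling, which put the median of all genes at -0.03 in G12, -0.06 in G13 and 0.01 in G14, gave -0.27, -0.25 and -0.59 there. A minimum of 20 TPM gave -0.044 in G3, -0.29 in G11, -0.25 in G12 and -0.46 in G14. Isoforms with a read in every library, chosen after the data were seen, gave -0.28 in G5. Reference-ID isoforms alone gave -0.062 in G3 and -0.29 in G5, and isoforms of at least 1 TPM gave -0.27 in G5.

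The median usage distance was 0.011, 0.0083, 0.020, 0.011, 0.012 and 0.016 over isoforms of at least 1 TPM, where the members' median was above that of all genes in G11 and below it in the other 5. Over isoforms with a read in every library it was 0.021 in G5, 0.025 in G11, 0.018 in G12 and 0.025 in G14. Over reference-ID isoforms it was 0.0011, 0.00045, 0.00081, 0.00068, 0.00078 and 0.00087. Against the mean shares of the other 6 libraries it was 0.023 for G11, 0.023 for G12, 0.025 for G13 and 0.029 for G14. With reads of all listed isoforms in the total, the share on nonsense-mediated decay or retained intron types was 0.061% in G5, 0.059% in G12, 0.068% in G13 and 0.088% in G14.

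Of single members, the small difference in the share of ENST00000390687 in SNRPN turned to 0.039 percentage points over reference-ID isoforms. Over isoforms with a read in every library, the difference in the share of ENST00000450554 in U2AF2 turned from 1.71 to -1.81 percentage points, and those of ENST00000337659 in PRPF4B and ENST00000374198 in PRPF4 shrank from 12.6 to 1.89 and from 4.04 to 0.93. SF3B2 had a median of 1.65 after rescaling, 1.82 with the trend removed and 1.53 over reference-ID isoforms. Against the median of the other 6 libraries it had 0.02. That reference is made mostly of G libraries, so a change that they share largely cancels out by construction. The cause of the shifts between settings was not tested. With 1 library a group, culture, RNA and library preparation cannot be told apart from the knockdown, and depth limits only the members with few reads, such as PRPF8 and U2AF1L4.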
